A study of Mus musculus with 12 samples.

Results

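The 10 genes described here encode the antigen presentation machinery and its activators. The class II genes are *H2-Aa*, *H2-Ab1*, *H2-Eb1*, *Cd74* and *Ciita*. The class I genes are *H2-K1*, *H2-D1*, *B2m*, *Tap1* and *Nlrc5*. They were chosen by name, and every peak that the deposited tables assign to one of them was taken: 11 of 26706 peaks in the table for Rpb2, the RNA polymerase II subunit that the study also writes as Rbp2, and 21 of 55862 peaks in the table for H3K27Ac, the acetylation of histone H3 that marks active promoters and enhancers. In all, 17538 genes had a peak in either table. The assay was ChIP-seq, where an antibody pulls down chromatin and the attached DNA is sequenced. Microglia were sorted as CD11b+ CD45lo cells from the brains of 2-mo-old mice, fixed and pooled from 3 mice of the same sex. *Cx3cr1*-KO mice carry eGFP in both copies of *Cx3cr1* (Cx3cr1eGFP/eGFP), *Cx3cr1*-WT mice carry neither, and all were littermates on the C57BL/6J background with no treatment. Per genotype and mark there were n = 2 pools, one of each sex by the labels, and a value written as mean ± SD is over these 2 pools. Values of single libraries are given in the order WT female, WT male, KO female and KO male.

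Class I molecules are built from a heavy chain such as H2-K1 or H2-D1 and the light chain β2-microglobulin (B2m), and carry peptides that the proteasome cuts and the transporter Tap1 brings into the endoplasmic reticulum. Class II molecules are heterodimers such as H2-Aa with H2-Ab1. The invariant chain Cd74 holds their groove until peptides from endosomes replace it. Nlrc5 drives transcription of class I genes and Ciita that of class II genes. Neither binds DNA by itself: both are recruited to promoters by RFX, CREB and NF-Y proteins. Microglia at rest are known for low class II and for class II that rises with interferon gamma.

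The letters that such factors read were looked up in the RefSeq promoters (build GRCm38.p6), where 6 of the 10 genes had an entry. The promoter set used had no entry for *H2-Ab1*, *Cd74*, *Ciita* and *Nlrc5*. Below are the 180 bases upstream of the annotated start, 5′ to 3′ on the gene's strand, and for *H2-K1* 30 bases, because exons of longer predicted transcripts cover the rest. They are shown because, in the 250 bases searched, all 6 genes hold the NF-Y letters and all but *H2-Eb1* the CREB letters. Of these 6, the class I heavy chains alone hold the kappa B letters. The NF-Y letters of *Tap1* and the NF-Y and CREB letters of *H2-K1* lie outside the bases shown. Capitals mark CCAAT (NF-Y), TGACG (CREB), GAAANNGAA (the core of the interferon-stimulated response element) or GGGATTCCC (kappa B), on either strand.
*B2m*, class I, plus strand of chr2:122147507-122147686: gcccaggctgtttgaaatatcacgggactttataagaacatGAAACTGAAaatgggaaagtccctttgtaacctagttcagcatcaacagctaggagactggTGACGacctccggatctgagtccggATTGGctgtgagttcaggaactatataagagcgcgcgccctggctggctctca
*H2-D1*, class I, plus strand of chr17:35262914-35263093: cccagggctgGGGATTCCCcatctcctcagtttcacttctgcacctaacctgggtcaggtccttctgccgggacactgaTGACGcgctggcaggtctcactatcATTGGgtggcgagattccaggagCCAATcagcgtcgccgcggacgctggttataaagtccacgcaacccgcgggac
*H2-K1*, class I, minus strand of chr17:34000439-34000468: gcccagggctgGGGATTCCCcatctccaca
*Tap1*, class I, plus strand of chr17:34187376-34187555: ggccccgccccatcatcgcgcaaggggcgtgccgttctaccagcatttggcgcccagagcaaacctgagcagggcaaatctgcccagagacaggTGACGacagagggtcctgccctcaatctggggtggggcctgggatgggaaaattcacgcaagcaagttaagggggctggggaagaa
*H2-Aa*, class II, minus strand of chr17:34287824-34288003: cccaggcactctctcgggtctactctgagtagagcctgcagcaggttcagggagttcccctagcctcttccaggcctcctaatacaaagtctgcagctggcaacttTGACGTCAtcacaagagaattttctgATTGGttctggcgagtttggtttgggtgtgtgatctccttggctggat
*H2-Eb1*, class II, plus strand of chr17:34305687-34305866: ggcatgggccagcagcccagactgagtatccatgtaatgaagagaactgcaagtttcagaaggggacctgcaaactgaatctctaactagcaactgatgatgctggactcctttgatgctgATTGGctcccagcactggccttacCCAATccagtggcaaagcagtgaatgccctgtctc

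In the 250 bases upstream of the start, CCAAT stood in 6 of these 6 genes and in 33.8% of 32851 promoters, and TGACG in 5 of 6, all but *H2-Eb1*, against 17.8%. In *H2-Aa* the letters TGACG overlapped on both strands. GGGATTCCC was found in *H2-K1* and *H2-D1* and in 0.301% of promoters. GAAANNGAA was found in *B2m* and in 7.13% of promoters. The search was for exact letters, so a window without a match may still hold a variant of an element. The letters TTCNNNGAA (the gamma-activated site, in 7.02% of promoters) and GAGGAAGT (PU.1, in 2.44%) were in none of the 6 windows. The upstream windows of *H2-K1* and *H2-D1*, which are closely related genes, shared a run of 47 identical bases, and no other pair of these windows shared over 10. The authors kept only uniquely mapped reads, so reads of such shared stretches may be missing, and how reads divide between *H2-K1* and *H2-D1* is uncertain.

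Library totals ran from 11662185 to 44332626 reads for Rpb2, with the KO female library the deepest, and from 10395804 to 21134403 for H3K27Ac. Peaks took up 11.2 to 15.1% of the Rpb2 reads. For H3K27Ac they took up 61.1 to 65.3% in 3 libraries but 15.9% in the WT female library. The Rpb2 library labelled WT female held 136 reads in peaks of Y-linked genes, against 0 in the KO female library. These reads go against its sex label, it is called the library labelled WT female below, and the Rpb2 values of *H2-K1*, *H2-Eb1* and the 3′ end of *B2m* are given without it too. Of 10 microglial marker genes, all had peaks of both marks, with a median percentile of 98.9 for Rpb2 and 97.3 for H3K27Ac among all genes by reads. Per kilobase of peak, these median percentiles were 69.0 and 89.7. By H3K27Ac, *Tmem119* was the lowest marker, at percentile 28.9 by reads, with 28, 4, 110 and 106 reads. The H3K27Ac sum of the 10 markers was lowest in the WT female library (4010 CPM, against 5752 to 7041 CPM in the others). CPM here are reads scaled to the total in the peaks of each library, with TMM factors, and levels of different genes are compared as CPM per kilobase of peak.

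Class I and class II genes differed in whether polymerase peaks were found. H3K27Ac peaks were assigned to 4 of 5 class I genes (9 peaks) and to 5 of 5 class II genes (12 peaks). Rpb2 peaks were assigned to 4 of 5 class I genes (10 peaks) but to 1 of 5 class II genes (1 peak, in *H2-Eb1*). The Rpb2 table had no row for *H2-Aa*, *H2-Ab1*, *Cd74*, *Ciita* or *Nlrc5*, in either genotype, and no Rpb2 peak assigned to another gene overlapped the bodies of these 5 or lay within 1000 bp of their starts. A missing row means that no peak passed the authors' calling and sets no upper limit on the reads. In these bulk samples, fewer cells that carry a mark and less of it per cell cannot be told apart.

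Summed over the genes of a class, Rpb2 CPM of class I was 856, 817, 836 and 736. For class II, the same sums were 4.58, 2.55, 9.08 and 12.5 CPM. The class II value is 1 peak of 323 bp, against 10 peaks of 2570 bp in class I, and a gene without a row adds 0, so this gap follows from which rows exist. By H3K27Ac, class I (9 peaks, 23692 bp, without the start of *Tap1*, whose peak is assigned elsewhere) held 287, 426, 415 and 374 CPM and class II (12 peaks, 20481 bp) held 124, 184, 161 and 180 CPM. Per kilobase of peak, the median gene of class I had 13.7 CPM and that of class II 5.79 CPM.

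**Figure D1:**
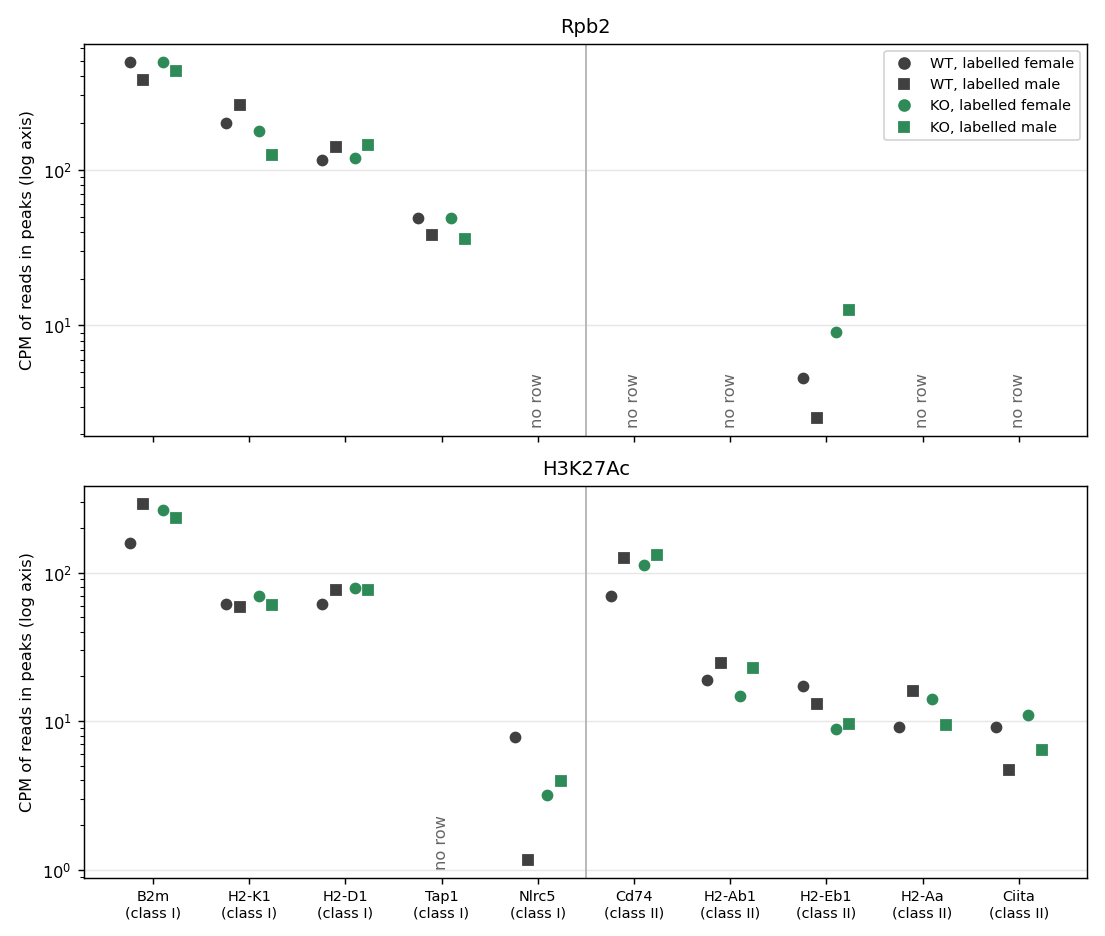
CPM of each member gene (log axis), summed over its peaks, in each of the 4 libraries of a mark, with Rpb2 above and H3K27Ac below. Circles are pools labelled female, squares pools labelled male, grey is WT and green is KO, and "no row" marks genes to which the table assigns no peak. By Rpb2, the lowest value of the 4 class I genes was 35.9 CPM (*Tap1*) and the highest of *H2-Eb1*, the class II gene with a row, was 12.5 CPM.

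The lack of Rpb2 rows was set against H3K27Ac, since genes with little acetylation seldom had an Rpb2 row. Of 16945 genes with an H3K27Ac row, 56.7% also had an Rpb2 row, and this share rose from 8.27% in the lowest decile of genes by H3K27Ac CPM to 98.7% in the highest. *Ciita*, *H2-Aa* and *H2-Eb1* were in the 4th decile, where 38.7% of genes had an Rpb2 row, and *Nlrc5* was in the 3rd, where 16.1% had one. *H2-Ab1* was in the 6th decile, where 73.5% had one. By this ranking on summed CPM, *Cd74* stood out: it was in the 9th decile, where 92.9% of genes had an Rpb2 row, and had none itself. The ranking does not allow for peak length, and the sum of *Cd74* is over 11059 bp. Per kilobase of peak, *Cd74* was at percentile 65.2, beside *H2-Eb1* at 65.8. The class I gene *H2-D1* was in the same 9th decile and had 3 Rpb2 peaks.

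**Figure D2:**
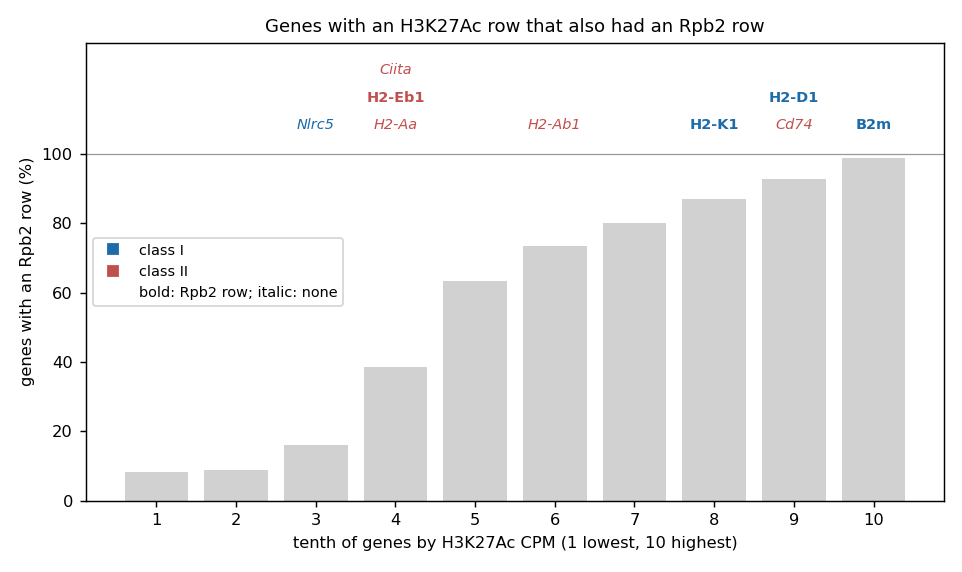
Share of genes with an H3K27Ac row that also had an Rpb2 row (y axis, %), by decile of genes ranked on mean H3K27Ac CPM (x axis, 1693 to 1695 genes per bar). Member names stand above their decile, class I in blue and class II in red, bold with an Rpb2 row and italic without, and *Cd74* is without one in a decile where 92.9% of genes have one.

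*B2m*, the light chain of every class I molecule, had the most polymerase among the members by summed CPM. Its promoter peak (chr2:122147604-122147819, over the start) held 550, 441, 2125 and 812 reads. Per kilobase it lay at percentile 99.9 of all 26706 Rpb2 peaks. The level was 359 ± 97.1 CPM in WT and 352 ± 49.3 CPM in KO pools, which overlapped (log2 fold change KO over WT −0.03 ± 0.21 SE, edgeR adjusted p = 0.970). A second peak in intron 1 (chr2:122148493-122148772) held 66, 105, 329 and 181 reads (0.11 ± 0.34, edgeR adjusted p = 0.920).

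In the body of *B2m* and past its end, 3 small Rpb2 peaks came from the KO peak list alone. The peak at the 3′ end of the gene (chr2:122153023-122153222) had 3 and 0 reads in the WT pools, with 88 and 35 in the KO pools. This is a ratio of 14.3 of the depth-scaled sums, with a 95% exact counting interval from 4.77 to 70.1 that covers counting error only, and the edgeR adjusted p was 0.265. The genotypes did not overlap there, and without the library labelled WT female, which leaves 0 WT reads, the edgeR adjusted p was 0.00291. That fit called 2210 of 26706 peaks, and the peak was chosen for its KO reads. The next peak downstream (chr2:122153666-122153889) (5, 38, 69 and 19 reads) did overlap, as did the peak in exon 2, with 22, 10, 44 and 26 reads. All 5 Rpb2 peaks lay inside 1 H3K27Ac domain (chr2:122146024-122157510), which spans the gene and held 566, 1745, 3476 and 2842 reads. Over the gene, H3K27Ac was 157, 290.1, 264 and 233 CPM (0.15 ± 0.30, edgeR adjusted p = 0.994). This value was 0.66 against the WT female library alone, past the test (edgeR adjusted p = 2.12e-06) in a fit that called 3807 of 16900 genes, and −0.22 against the WT male library alone (edgeR adjusted p = 0.295).

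*H2-K1*, a class I heavy chain, had the lowest Rpb2 log2 fold change among the class I genes. Its only Rpb2 peak was at the promoter (chr17:34000142-34000358), with 260, 408, 959 and 306 reads, or 198, 260.04, 178 and 123 CPM in the fit by gene. The KO pools were each lower than either WT pool. The log2 fold change was −0.60 ± 0.22, which did not pass the test after adjustment (edgeR adjusted p = 0.325). Without the library labelled WT female, which leaves 1 WT pool that is assumed to vary like the KO pools, the value was −0.80 ± 0.25 with an edgeR adjusted p of 0.0498, in a fit that called 264 of 10206 genes. It was −0.39 without the WT male library (edgeR adjusted p = 0.546), −0.37 without the KO male library (0.916) and −0.89 without the KO female library (0.826). H3K27Ac at the same promoter (chr17:33999250-34001570) held 182, 271, 715 and 552 reads and overlapped between genotypes (0.06 ± 0.30). A second H3K27Ac peak upstream (chr17:34005021-34006741), with 44, 80, 203 and 194 reads, had the KO pools higher (0.30 ± 0.46, edgeR adjusted p = 0.979). That upstream peak came from the KO list alone, whose H3K27Ac peaks had a median log2 fold change of 0.52.

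*H2-D1*, the other heavy chain, had 3 Rpb2 peaks that went different ways. The promoter peak (chr17:35262986-35263229) held 131, 182, 396 and 251 reads, with the KO pools lower in CPM (−0.39 ± 0.28, edgeR adjusted p = 0.60). A pair of intergenic peaks of the KO list upstream (chr17:35258265-35258599 and chr17:35259138-35259514) held 9, 4, 79 and 41 reads and 12, 34, 162 and 65 reads. At each of them the KO pools were higher in CPM than either WT pool (1.66 ± 0.88 and 0.78 ± 0.60, edgeR adjusted p = 0.468 and 0.625). Summed over the gene, Rpb2 was at 116, 140.2, 118 and 144 CPM, with a log2 fold change of 0.03 ± 0.25 that turned to −0.25 with peaks within 1000 bp of a start alone. All 3 lay inside the 2 H3K27Ac peaks of *H2-D1*, of which the upstream one (127, 189, 486 and 524 reads) also had the KO pools higher (0.26 ± 0.31, edgeR adjusted p = 0.939).

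*Tap1*, a subunit of the peptide transporter, shares its promoter region with *Psmb9*, a subunit of the immunoproteasome that is read in the other direction. The Rpb2 peak of *Tap1* (chr17:34187665-34187866) held 64, 60, 264 and 89 reads, or 48.8, 38.2, 48.9 and 35.9 CPM, with pools that overlapped (−0.03 ± 0.41, edgeR adjusted p = 0.993). The Rpb2 peak on the *Psmb9* side (chr17:34187198-34187422) held 35, 68, 434 and 150 reads, with both KO pools above both WT pools (0.93 ± 0.40, edgeR adjusted p = 0.370). Like the Rpb2 peak of *Tap1*, it came from the KO list alone, whose peaks had a median log2 fold change of 0.51. *Tap1* had no H3K27Ac row because the peak that covers its start (chr17:34186338-34188468) is assigned to *Psmb9*. That peak held 205, 415, 1058 and 1403 reads, again with both KO pools above both WT pools (0.63 ± 0.29, edgeR adjusted p = 0.811).

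In class II, *H2-Eb1*, the beta chain of the E molecule, had the only Rpb2 peak, and the log2 fold changes of the marks had opposite signs there. The peak in intron 2 (chr17:34309745-34310068) came from the KO list and held 6, 4, 49 and 31 reads, or 4.58, 2.55, 9.08 and 12.5 CPM. Both KO pools were above both WT pools (1.59 ± 0.94, edgeR adjusted p = 0.552). Without the library labelled WT female the value was 2.03 ± 1.06 (edgeR adjusted p = 0.360). Per kilobase, the gene was at percentile 0.554 of 10206 genes with an Rpb2 row. The H3K27Ac peak around it (chr17:34309091-34310299) held 64, 78, 116 and 118 reads, or 17.3, 12.97, 8.80 and 9.55 CPM, with both KO pools below both WT pools (−0.72 ± 0.72, edgeR adjusted p = 0.958). Neither passed the test.

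*Cd74*, the invariant chain, carried most of the class II acetylation by summed CPM, over 4 peaks. Its main H3K27Ac peak (chr18:60803416-60809404) covered the start and much of the gene and held 185, 584, 1192 and 1269 reads. Over its 4 peaks, this gave 69.7, 126, 113 and 131.9 CPM, with pools that overlapped (0.32 ± 0.28, edgeR adjusted p = 0.945). The WT female library, the one with 15.9% of reads in peaks, was the lowest. Against the WT male library alone, the log2 fold change was −0.04, and against the WT female library alone it was 0.81, past the test (edgeR adjusted p = 0.000192) in a fit that called 3807 of 16900 genes, so the direction at *Cd74* rests on which WT pool is used.

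The alpha and beta chains of the A molecule had low acetylation. *H2-Ab1* had 18.9, 24.8, 14.8 and 22.7 CPM over 3 H3K27Ac peaks (−0.22 ± 0.43, edgeR adjusted p = 0.994). Its strongest peak (chr17:34263221-34265725) began at the start of the gene. *H2-Aa* had 9.18, 15.96, 14.2 and 9.47 CPM over 2 peaks (−0.09 ± 0.73, edgeR adjusted p = 0.999). The peak over the *H2-Aa* start (chr17:34286435-34288121) came from the KO list and held 15, 24, 99 and 67 reads, with both KO pools higher in CPM (0.68 ± 1.05, edgeR adjusted p = 0.979), whereas the one upstream of it (chr17:34295645-34296851) held 19, 72, 88 and 50 reads and overlapped.

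Both activators were weakly marked. *Ciita* had 2 H3K27Ac peaks, both of the KO list: 24, 28, 118 and 55 reads upstream (chr16:10475451-10476769) and 10, 0, 26 and 24 reads at a promoter (chr16:10479394-10479894). Together they gave 9.18, 4.66, 10.9 and 6.39 CPM, which overlapped between genotypes (0.33 ± 1.199, edgeR adjusted p = 0.999). A further H3K27Ac peak inside the *Ciita* gene (chr16:10521622-10522519), of both lists, is assigned to *Dexi*. It held 30, 4, 32 and 58 reads and overlapped too (−0.34 ± 1.48). *Nlrc5* had 3 H3K27Ac peaks, and no library held more than 33 reads in any of them. One of these (chr8:94458450-94458950) had 20 reads in the WT female library, with 0 in the other 3. The RefSeq start of *Nlrc5* was covered by an H3K27Ac peak that is assigned to the noncoding neighbour *9330175E14Rik* (chr8:94433429-94435225). It held 44, 18, 111 and 146 reads (0.43 ± 0.63, edgeR adjusted p = 0.974). The authors' annotation uses another start of *Nlrc5*, farther downstream, since it puts the peak at chr8:94458450-94458950 at −14063 bp from it.

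Per kilobase of peak, H3K27Ac ran in the order *B2m* (19.7 CPM per kb), *H2-K1* (15.4), *H2-D1* (11.9), *H2-Eb1* (10.1), *Cd74* (9.94), *H2-Ab1* (5.79), *Ciita* (4.28), *H2-Aa* (4.22) and *Nlrc5* (2.69), as means over both genotypes. These are percentiles 95.1 for *B2m* and 8.39 for *Nlrc5* among 16938 genes. For Rpb2 the order was *H2-K1* (879 CPM per kb), *B2m* (374), *Tap1* (214), *H2-D1* (136) and *H2-Eb1* (22.2). This order differs from that by CPM because the small peaks of *B2m* and *H2-D1* add length.

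The question of the design is whether the loss of *Cx3cr1* changed these marks, and no member passed the test. At an adjusted p under 0.05 (edgeR's quasi-likelihood test over all peaks or genes of a table), 0 of 11 Rpb2 peaks were called, against 0.00749% of all peaks, and 0 of 5 genes, against 0.0%. At an unadjusted p under 0.05 these were 2 peaks, the *H2-K1* promoter and the 3′ end of *B2m*, among 3253 of 26706 peaks, and 1 gene, *H2-K1*, among 1101 of 10206 genes. For H3K27Ac, 0 of 21 peaks were called, against 0.0233% of all peaks, and 0 of 9 genes, against 0.0%, and no member peak or gene had an unadjusted p under 0.05, as 1098 of 16938 genes did. The spread in the fit on all H3K27Ac peaks was wide, with a common dispersion of 1.28 for peaks and 0.666 for genes, against 0.133 and 0.0676 for Rpb2, so a count of 0 there does not show that acetylation did not differ. DESeq2 called 28 genes for Rpb2 and 213 for H3K27Ac, and no member. The KO pools did not overlap the WT pools in 6 of 11 Rpb2 peaks (54.5%, against 47.4% of all peaks) and 2 of 5 genes (40.0%, against 42.1%). This was so in 7 of 21 H3K27Ac peaks (33.3%, against 27.4%) and 1 of 9 genes (11.1%, against 27.6%).

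The median log2 fold change of Rpb2 was 0.00 over 4 class I genes, with a range from −0.60 to 0.09, against 0.02 over all genes tested. The single class II value was 1.59. For H3K27Ac, the medians were 0.14 over 4 class I genes and −0.09 over 5 class II genes, against −0.11 over all genes, with ranges from −0.32 to 0.17 and from −0.72 to 0.33. The difference between the classes was not tested. A fit on the peaks of both lists alone drops most sparse peaks and lowers the common dispersion of the H3K27Ac genes from 0.666 to 0.0691. It called 0 members as well, beside 8 of 6192 Rpb2 genes and 0 of 10947 H3K27Ac genes in all. That fit does not hold *Tap1* and *H2-Eb1* by Rpb2 or *Ciita* and *Nlrc5* by H3K27Ac.

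**Figure D3:**
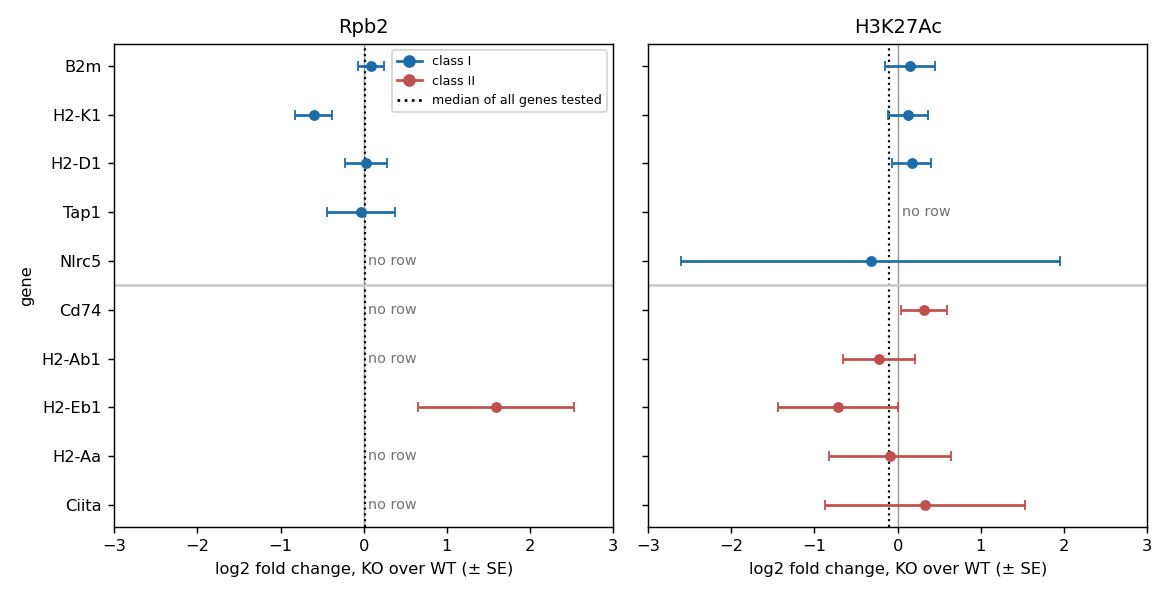
Log2 fold change of each member gene, KO over WT (x axis, edgeR, bars ± SE), for Rpb2 on the left and H3K27Ac on the right, with class I in blue and class II in red. The dotted line is the median of all genes tested (0.02 and −0.11), and *H2-K1* by Rpb2, at −0.60 ± 0.22, lies farthest from it relative to its error.

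Peak lists matter for these counts, since a peak of the KO list alone was chosen for its KO reads. Of the 11 Rpb2 peaks of members, 7 came from the KO list alone, 4 from both lists and 0 from the WT list alone, beside 53.0, 33.3 and 13.7% of all Rpb2 peaks. Over all peaks, those of the KO list had a median log2 fold change of 0.51 and those of both lists −0.17. The positive values at *H2-Eb1* (1.52 in the fit by peak) and upstream of *H2-D1* are thus in a list with a positive median, while the 4 peaks of both lists were the *B2m*, *H2-K1* and *H2-D1* promoters and the first intron of *B2m*, from −0.68 to 0.11. Of 21 H3K27Ac peaks of members, 11 came from the KO list alone, 9 from both and 1, near *Nlrc5*, from the WT list alone, beside 29.1, 37.7 and 33.3% of all H3K27Ac peaks, whose median log2 fold changes were 0.52, 0.04 and −6.78.

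Around the members, other genes of the class I pathway were listed by role: transporter and loading factors, proteasome subunits and nonclassical heavy chains. Of 22 such genes, 16 had an Rpb2 row and 0 passed the test, with a median log2 fold change of 0.10. Over all genes, genotypes were apart for 42.1%, with KO higher in 22.4% and lower in 19.7%. Sums over a gene include peaks of the KO list alone, which were 53.0% of all Rpb2 peaks. Genotypes were apart for 7 of the 16 class I pathway genes, with KO higher in 6 and lower in 1. Those 6 were *Erap1*, an aminopeptidase that trims peptides, and the proteasome genes *Psmb8*, *Psmb9*, *Psmb10*, *Psme1* and *Psme2*. *Psmb10*, a catalytic subunit of the immunoproteasome, had 93.8, 65.6, 141 and 125 CPM (0.74 ± 0.28, edgeR adjusted p = 0.333). *Psmb9* had 26.7, 52.9, 88.7 and 68.6 CPM over its peaks (0.98 ± 0.39, edgeR adjusted p = 0.359). The 1 that was lower was *Pdia3*, a disulfide isomerase of the peptide-loading complex, with 214, 207, 122 and 128 CPM (−0.75 ± 0.21, edgeR adjusted p = 0.184). By H3K27Ac, *Pdia3* went the other way, with the KO pools higher (0.33 ± 0.24). In that mark *Psmb9* also had the KO pools higher (0.47 ± 0.26), and *Psmb10* overlapped (0.04 ± 0.28).

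By H3K27Ac, 19 of the 22 class I pathway genes had a row, 0 passed the test, and the median was 0.17. Genotypes were apart for 9 of the 19, with KO higher in 6 and lower in 3, beside 27.6% of all genes (13.4% higher and 14.2% lower). *Psme2*, an activator subunit of the proteasome, had 58.9, 62.5, 86.5 and 81.9 CPM (0.47 ± 0.23, edgeR adjusted p = 0.787), and *Tapbpl*, a relative of the peptide editor tapasin, had 42.9, 49.0, 59.5 and 67.7 CPM (0.46 ± 0.24, edgeR adjusted p = 0.843). In both, the KO pools lay above the WT pools. By Rpb2, *Psme2* also had the KO pools higher (0.73 ± 0.35), while *Tapbpl* overlapped (−0.28 ± 0.46). Neither table had a row for *H2-Q2*, *H2-Q10* or *H2-T22*.

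The class II pathway list holds the peptide editors H2-DM and H2-DO, endosomal proteases and the factors that recruit Ciita. Of 18 genes, 15 had an Rpb2 row and 16 an H3K27Ac row, 0 passed the test in either, and the medians were 0.16 and 0.21. By Rpb2, genotypes were apart for 12 of the 15, with KO higher in 8 and lower in 4, beside 42.1% of all genes (22.4% higher and 19.7% lower). By H3K27Ac they were apart for 7 of the 16, with KO higher in 6 and lower in 1, beside 27.6% (13.4% higher and 14.2% lower). Unlike the class II members, most of this list thus had Rpb2 rows. *Lgmn*, an endosomal protease, had 1861, 1420, 1862 and 1993 CPM of Rpb2 (0.23 ± 0.10, edgeR adjusted p = 0.392), at percentile 99.9 of all genes by CPM. The *Lgmn* sum is over 42 peaks, and per kilobase of peak it was at percentile 56.1. *Nfya*, the DNA-binding subunit of NF-Y, had 15.3, 7.65, 41.3 and 38.7 CPM of Rpb2, with the genotypes apart (1.82 ± 0.57, edgeR adjusted p = 0.227). *H2-DMb2*, a chain of the peptide editor H2-DM, had 60.2, 112, 143 and 144 CPM of H3K27Ac (0.73 ± 0.28, edgeR adjusted p = 0.574), and again both KO pools were above both WT pools. By Rpb2, both KO pools of *H2-DMb2* were below both WT pools (−0.42 ± 0.46, edgeR adjusted p = 0.785). *Lgmn* and *Nfya* overlapped by H3K27Ac (0.25 ± 0.38 and 0.10 ± 0.27).

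Of the 6 costimulation genes, 5 had an Rpb2 row and 6 an H3K27Ac row. *Cd80*, a ligand of CD28 on T cells, had 53.5, 58.4, 86.1 and 82.3 CPM of H3K27Ac (0.59 ± 0.23, edgeR adjusted p = 0.609). By Rpb2, *Cd80* went the other way, with the KO pools lower (−0.19 ± 0.28). All 9 genes of the interferon gamma input, from receptors to Irf8, had rows in both tables, at a median percentile of 93.8 for Rpb2 and 97.2 for H3K27Ac by CPM. Per kilobase of peak, these median percentiles were 59.9 and 88.1. In neither list did a gene pass the test, and the median log2 fold changes lay between −0.12 and 0.09.

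**Figure D4:**
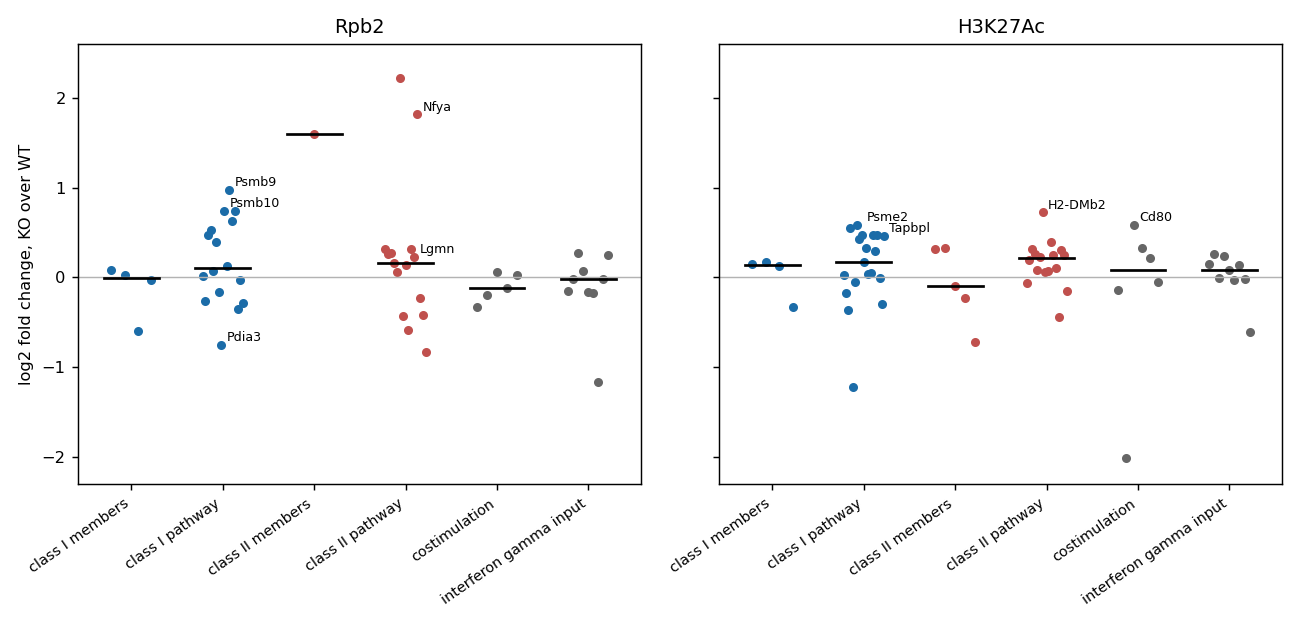
Log2 fold change of each gene with a row, KO over WT (y axis, edgeR), by list, for Rpb2 on the left and H3K27Ac on the right, with a black line at the median of each list. Named points are genes of the pathway lists with the lowest p in each mark that the text describes, and no point passed the test.

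Class II genes are high in B cells, dendritic cells and border macrophages, so markers of cells that a sort could let through were summed. Of 6 B cell markers, 0 had an Rpb2 row and 3 an H3K27Ac row, and their H3K27Ac sum ran from 51.7 to 60.5 CPM in KO and from 68.0 to 68.2 CPM in WT pools. *Cd79a* and *Pax5* had no row in either table. Of 7 dendritic cell markers, 4 had an Rpb2 row, with sums from 169 to 190 CPM in WT and from 204 to 221 CPM in KO pools, and 7 had an H3K27Ac row, with sums from 369 to 473 and from 454 to 483 CPM. *Xcr1*, *Clec9a* and *Cd209a* had no Rpb2 row, and by H3K27Ac CPM they were at percentiles 84.3, 79.4 and 3.98 of all genes. Of 7 border macrophage markers, 1 had an Rpb2 row, *Cbr2*, and 6 an H3K27Ac row, with sums from 138 to 198 CPM in WT and from 169 to 177 CPM in KO pools. Of 6 monocyte markers, 1 had an Rpb2 row and 3 an H3K27Ac row, with sums from 98.5 to 149 and from 112 to 134 CPM. Neutrophil, T or NK cell, astrocyte and neuron markers had no Rpb2 row, and their H3K27Ac sums were highest in the WT female library, at 30.2, 12.96, 19.7 and 56.7 CPM, against 4.16, 1.30, 0.648 and 26.4 CPM at most in the others. Of 5 oligodendrocyte markers, 3 had an Rpb2 row, with sums from 217 to 257 CPM, and of 5 endothelial markers 2 had one, with sums from 69.5 to 86.2 CPM in WT and from 50.9 to 62.1 CPM in KO pools. By H3K27Ac, all 5 oligodendrocyte markers had a row, with sums from 336 to 411 CPM. An H3K27Ac row was there for 4 endothelial markers, with sums from 241 to 284 CPM in WT and from 296 to 300 CPM in KO pools. The part of such cells in the member values was not tested.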

How the data were processed

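Reads were mapped by the authors to mm10 with Bowtie2, and reads with a single best position were retained. Peaks were called with HOMER and screened by the irreproducible discovery rate between replicates. The tables credit each joined peak to a WT list, a KO list or both, and some peaks have 0 reads in 1 pool of their list's genotype. Tool versions are not given in the sources used here. The deposited tables, 1 per mark, hold raw counts of reads in each joined peak, with the gene assigned to it. The input libraries were not used here, and 0 columns that hold values of samples were left out. The header of 1 Rpb2 column spells the KO genotype differently from the labels and was matched by its other parts. Peak ends fell within the GRCm38 chromosome lengths in 42 of 42 checks. The authors' distance to the start matched the RefSeq start within 100 bp for 26 of 32 member peaks.

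Counts were tested in edgeR 4.0.16 under R 4.3.3 (glmQLFit, glmQLFTest, TMM, Benjamini-Hochberg adjustment, threshold 0.05), with genotype alone, on all peaks that averaged 4 or more reads in WT or in KO, and on reads summed over the peaks of a gene. A prior count of 2 entered log2 CPM. The SE was the log2 fold change divided by the root of F. With 2 pools against 2, an exact permutation test of one gene cannot go below 0.333. Labels do not say that the pools came from separate experiments, so p-values measure the spread between these pools. Alternatives were other offsets (total reads, loess in limma 3.58.1), DESeq2 1.42.0, other filters, peaks within 1000 bp of a start, the highest peak of a gene, sex as a block, and each pool left out. The peaks of both lists were added after seeing the data. The fits were tested on simulated data. There the H3K27Ac fits on all peaks recovered none of the planted changes and the Rpb2 fit by peak a minority. The Rpb2 fit by gene and the fits on peaks of both lists recovered most. The planted changes were larger than most of those of the members, and recovery of smaller changes was not tested.

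The members and the lists were chosen with earlier results of these data known. The genes named were the members, the 5 genes of the pathway lists with the lowest p in each mark, of which 1 is not reported here, and markers by list. *Erap1*, *Psmb8*, *Psme1*, *9330175E14Rik*, *Dexi* and the pathway genes without a row were named after their values were seen. Promoter sequences came from RefSeq. Tables, motifs and figures were made with Python 3.11.15 (pandas 2.3.3, SciPy 1.17.1, NumPy 2.4.6, matplotlib 3.10.9).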

Additional observations from a re-analysis of the deposited data

Results flagged for a closer look

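For 4 member genes, the log2 ratio of KO over WT by H3K27Ac had opposite signs in the pools of either sex, and this difference was not tested. For *H2-Aa* the female ratio was 0.62 and the male ratio −0.74, a difference of −1.35. For *B2m* these were 0.75 and −0.31, a difference of −1.06. For *H2-D1* they were 0.37 and −0.01, a difference of −0.38. For *Nlrc5* they were −1.24 and 1.59, a difference of 2.83. Each female ratio rests on the WT female library, which had 15.9% of its reads in peaks.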

How the results depend on the processing

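No member was called under other scalings, filters, DESeq2, the sex label as a replicate block, the highest peak of a gene, peaks within 1000 bp of a start, or peaks of both lists (added after seeing the data). Leaving out 1 library, which leaves a lone library assumed to vary like the other genotype, moved the members called to 0 to 2 peaks and 0 to 1 genes for Rpb2 and to 0 to 2 peaks and 0 to 2 genes for H3K27Ac. The calls came without the Rpb2 library labelled WT female (*H2-K1*, and the 3′ peak of *B2m*) and without the H3K27Ac WT male library (*B2m*, *Cd74*). Whole-table calls moved far more: Rpb2 peaks from 2 to 1022 with DESeq2, 2210 without the library labelled WT female and 1963 without the WT male (264 and 155 Rpb2 genes, from 0), H3K27Ac peaks from 13 to 8157 without the WT male, and H3K27Ac genes from 0 to 324 with loess offsets, 213 with DESeq2 and 3807 without the WT male. The sex label as a replicate block called 43 Rpb2 and 140 H3K27Ac genes, no member. Pools of the same sex label did not deviate together over all peaks or genes (correlation from −0.026 to −0.00027). This does not show that such pools share a label only. Y-linked H3K27Ac reads followed the labels, with 281 (WT) and 656 (KO) for the male libraries and 0 for either female library. The Rpb2 library labelled WT female held 136 Y-linked reads, so the Rpb2 correlations cannot test sex. Except where given, the causes were not tested.

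Of the values of member genes under alternatives, 137 kept direction and side of the threshold, 3 passed it newly and 30 changed sign, all uncalled. Scaling by total reads shifted the median of all genes to 0.27 (Rpb2) and 0.63 (H3K27Ac). With it the Rpb2 class I median was 0.25 and *Tap1* 0.20, and by H3K27Ac the class I median was 0.84, the class II median 0.46, *H2-Aa* 0.46, *H2-Ab1* 0.39, *H2-Eb1* 0.12 and *Nlrc5* 1.10. The Rpb2 class I median was −0.02 with DESeq2, 0.02 with at least 10 reads in every library, −0.11 near starts, −0.15 with the highest peak and −0.19 with both lists. *H2-D1* by Rpb2 was −0.25, −0.29 and −0.19 under the last 3, and *Tap1* 0.03 near starts. By H3K27Ac, the class II median was 0.58 near starts and −0.44 with both lists, *H2-Aa* was 0.62 near starts, −0.75 with the highest peak and −0.73 with both lists, *H2-D1* was −0.01 near starts, *H2-K1* was −0.02 and *H2-D1* −0.01 with the highest peak, and *H2-K1* was −0.01 with both lists. Loess offsets gave 0.64 for *H2-Eb1*, the class II median by Rpb2, and 1.43 for *Nlrc5* by H3K27Ac, which was 0.21 with the replicate block.

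With each library left out in turn, values ranged from −0.14 to 0.02 for the Rpb2 class I median, −0.89 to −0.37 for *H2-K1*, −0.13 to 0.17 for *H2-D1*, −0.09 to 0.27 for *B2m* and −0.28 to 0.17 for *Tap1*. By H3K27Ac they ranged from −0.40 to 0.17 for the class II median. For single genes by H3K27Ac they ranged from −0.43 to 0.37 (*H2-Aa*), −0.56 to 0.06 (*H2-Ab1*), −0.04 to 0.81 (*Cd74*), −0.11 to 0.90 (*Ciita*), −0.22 to 0.66 (*B2m*) and −1.13 to 1.61 (*Nlrc5*).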
